A study of Mus musculus with 21 samples.

Results

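Ascorbic acid (vitamin C) was compared with no addition in mouse embryoid bodies at day 5 of differentiation. The comparison holds 6 of the 21 arrays of the series: the 3 ascorbic acid arrays and the 3 control arrays that the labels place at day 5, with arrays of the same replicate number taken as a pair. Embryoid bodies are unsorted balls of differentiating stem cells that begin to make ectoderm, mesoderm and endoderm. They were grown from CGR8, a mouse embryonic stem cell line, with 500 cells in each hanging drop of 25 µL, and were agitated on a shaker after day 2. Treated cultures received ascorbic acid at 100 µM in an IMDM-based medium, and control cultures were labelled as non treated. Neither group carried a transgene or an induced mutation according to the labels, and both come from this 1 cell line. Each array was hybridised with biotinylated cRNA made from 100 ng of total RNA, and the values are log2 signals, so that a difference of 1 is a 2-fold change. The submitters carried samples forward only where ascorbic acid had later raised the number of beating aggregates, so these cultures are a selected set. Beating was scored at later days, so the comparison asks which transcripts already differ at day 5.

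By this stage mesoderm of the aggregates branches into blood, vessel and heart lineages. The first blood cells of the mouse are primitive erythroid cells, which carry embryonic globins, and their founders share a precursor with endothelium that is marked by the VEGF receptor Kdr. Tal1, Lmo2 and GATA factors act there in 1 DNA-binding complex. Ascorbic acid is a cofactor of iron-dependent dioxygenases, among them collagen prolyl hydroxylases, TET enzymes that oxidise methylated cytosine, histone demethylases and the hydroxylases that mark HIF for breakdown.

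The arrays carried marks of mesoderm and of endoderm at day 5. Pou5f1, the pluripotency factor gene, stood at 5.89, 7.32 and 6.49 in treated embryoid bodies and at 6.18, 6.73 and 6.63 in controls, where day 3 controls averaged 11.65 ± 0.06 (SD, n = 3). Hand2, a gene of the heart field, stood at 10.75, 11.07 and 10.20 with ascorbic acid and at 10.49, 10.86 and 10.57 in controls. The groups overlapped in both genes, and Pou5f1 lay far below its day 3 level. The list of 21 lateral plate and paraxial mesoderm genes averaged 7.70, 7.82 and 7.75 with ascorbic acid and 7.83, 8.00 and 7.96 in controls, so that every treated array was slightly below every control. Of these genes 8 were lower in all 3 pairs, as were 10.9% of all genes, and 0 were higher in all 3 (13.3% of all genes). The 15 definitive endoderm genes averaged 8.43, 8.60 and 8.23 with ascorbic acid and 8.62, 8.57 and 7.84 in controls. In day 3 controls that list averaged 7.69, 7.84 and 7.08. The 17 extraembryonic endoderm genes averaged 8.06, 8.33 and 7.68 with ascorbic acid and 7.88, 8.21 and 7.62 in controls. In day 3 controls they averaged 7.04, 7.13 and 7.09. On its brightest probe set the liver and yolk sac gene Afp was at 5.12 to 5.96 with ascorbic acid and 5.13 to 5.78 in controls. That probe set read 5.37, 5.31 and 4.99 in day 3 controls. Another read 4.30, 5.79 and 3.44 with ascorbic acid, 3.69, 5.26 and 3.11 in controls and 2.91, 3.58 and 3.01 in day 3 controls. It was higher in each pair but not called (adjusted p = 0.925, limma), with several values near the low end. The neural gene Sox1 was at 5.64 to 6.10 with ascorbic acid and 5.62 to 5.88 in controls. Within groups, arrays correlated at 0.990 to 0.992 with ascorbic acid and at 0.989 to 0.992 in controls. RNA integrity, read as the Actb signal at its 3' end minus that at its 5' end, was 1.09, 0.71 and 1.09 with ascorbic acid and 0.85, 0.94 and 0.89 in controls, so that the groups overlapped. These arrays hold whole aggregates, so more cells of a type and more RNA per cell cannot be told apart in any result given here.

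With ascorbic acid, 142 of 18193 genes rose (0.781%) and 32 fell (0.176%) at a Benjamini-Hochberg adjusted p under 0.05. The test was limma with the pair as a block, fitted to the 18 arrays of days 2, 3 and 5 with a treatment effect for each day. In all, 174 genes (0.956%) were called, and all 174 differed in the same direction in the 3 pairs, as did 24.2% of all genes. The calls were made on these same values, so neither this agreement nor the overlap counts that follow are separate evidence. The treated and control arrays did not overlap for 89 of the 142 genes that rose and for 15 of the 32 that fell, where 4.08% of all genes lay without overlap above controls and 2.34% below (6.41% together). At least 2-fold differences numbered 37 among the rises and 1 among the falls. The median difference over all genes was 0.01. The paired fit of the 6 day 5 arrays alone called 68 rises (0.374%) and 15 falls (0.0824%), and 80 of these 83 genes (0.456%) were among the 174. Without the pairing the 18 arrays gave 12 rises (0.066%) and 3 falls (0.0165%), all among the 174. Of the 52 called genes that the naming rule took, 43 lost their call without the pairing, and the 9 that kept it were Tal1, Pttg1, Hapln1, Col5a2, Sox7, Hmgn3, Zic1, Rps4l and Hoxc4. At an unadjusted p under 0.05 the unpaired fit held 3.93% of genes and the paired fit 7.82%. The p-values use a moderated spread per gene, pooled over the 9 pairs of days 2, 3 and 5, whose samples the labels call biological replicates. The 3 day 5 pairs alone can spread more or less than this. Their SE was 0.888 for Hba-x and 0.577 for Myl7, against 0.328 and 0.237 in the fit. It was 0.043 for Pttg1 and 0.021 for Csgalnact1, against 0.078 and 0.101.

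Blood genes formed the group with the most calls. Of 21 measured genes of blood factors, globins and heme synthesis, 11 rose (52.4%, against 0.781% of all genes) and 0 fell. The median difference was 0.86 against 0.01 over all genes. The paired fit of day 5 alone called 8 of them and the unpaired fit 3. The list averaged 7.93, 7.93 and 7.37 in the treated arrays and 7.02, 7.06 and 6.71 in the control arrays. All 3 treated arrays thus lay above all 3 control arrays, and the arrays of replicate 3 were the lowest of both groups. The 11 genes encode 8 transcription factors or cofactors (Tal1, Lmo2, Gata1, Gata2, Lyl1, Klf1, Nfe2 and Myb), the embryonic globins Hbb-bh1 and Hba-x, and Alas2, the erythroid enzyme that starts heme synthesis.

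Tal1, the basic helix-loop-helix factor that sets up the blood lineage, was measured at 9.67, 9.54 and 9.54 with ascorbic acid and at 8.26, 8.14 and 7.45 in controls. The treated arrays were nearly equal and lay more than 1 log2 unit above the highest control. The difference was 1.63 ± 0.14 (SE; 3.10-fold; adjusted p = 9.36e-06, limma). Tal1 was also called without the pairing, at adjusted p = 2.48e-05. Lmo2, the bridging cofactor of Tal1, was measured at 10.20, 10.09 and 9.40 with ascorbic acid and at 8.99, 9.02 and 7.99 in controls. Its groups did not overlap although replicate 3 was lowest in both, and the difference was 1.23 ± 0.11 (2.35-fold; adjusted p = 1.14e-05; adjusted p = 0.0655 without the pairing). Lyl1, a close relative of Tal1, stood at 7.79, 7.11 and 6.75 with ascorbic acid and at 6.47, 6.58 and 6.14 in controls (0.82 ± 0.16; adjusted p = 0.0146; adjusted p = 0.164 without the pairing and 0.0614 by day 5 alone).

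The GATA factors rose as well. Gata1, the master regulator of red cell genes, was at 7.31, 7.12 and 7.28 with ascorbic acid and at 6.05, 6.42 and 6.33 in controls. The difference was 0.97 ± 0.14 (1.96-fold; adjusted p = 0.00133, limma; adjusted p = 0.00579 without the pairing). Gata2, which acts earlier in blood progenitors, was at 8.16, 8.43 and 8.57 with ascorbic acid and at 7.81, 7.37 and 7.39 in controls (0.86 ± 0.15; adjusted p = 0.00667; adjusted p = 0.0655 without the pairing). In neither gene did the groups overlap. Klf1, the factor that activates adult globin genes, was at 8.21, 8.67 and 7.51 with ascorbic acid and at 7.10, 7.06 and 7.13 in controls (1.03 ± 0.16; adjusted p = 0.00341; adjusted p = 0.149 without the pairing). Its treated arrays varied more than its controls, which were nearly equal. Nfe2, a bZIP factor of red cells and platelets, was at 6.98, 6.89 and 6.31 with ascorbic acid and at 5.91, 5.68 and 5.33 in controls (1.09 ± 0.13; adjusted p = 3.22e-04; adjusted p = 0.0212 without the pairing).

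Myb, a factor of proliferating blood progenitors, followed another time course. It was at 7.73, 7.68 and 7.68 with ascorbic acid and at 6.02, 6.27 and 6.01 in day 5 controls, a difference of 1.60 ± 0.16 (3.02-fold; adjusted p = 5.12e-05, limma; adjusted p = 0.0711 without the pairing). Stem cells averaged 7.09 ± 0.71, day 2 controls 8.74 ± 0.74 and day 3 controls 8.57 ± 0.62 (SD, n = 3), so treated aggregates stayed below the earlier control levels and above the day 5 controls. For Tal1 the control means were 5.56 in stem cells, 5.65 at day 2, 5.52 at day 3 and 7.95 at day 5, the highest mean of the 4.

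The embryonic globins varied far more between replicates. Hbb-bh1, a beta-like globin of primitive red cells, was measured at 13.30, 12.99 and 10.97 with ascorbic acid and at 10.02, 11.16 and 7.81 in controls. The groups overlapped because replicate 3 was low in both, yet each treated array exceeded its partner, by 3.28, 1.83 and 3.16. The difference was 2.76 ± 0.24 (6.76-fold; adjusted p = 9.69e-06, limma), and the spread of the 3 pairs alone gave an SE of 0.47. Without the pairing adjusted p = 0.099. Hba-x, the embryonic zeta globin, was at 10.68, 10.68 and 7.01 with ascorbic acid and at 7.54, 8.81 and 6.93 in controls. Its rise of 1.70 ± 0.33 (adjusted p = 0.0158) came from pairs 1 and 2, since pair 3 differed by 0.08. It was not called by day 5 alone (adjusted p = 0.129) or without the pairing (adjusted p = 0.864). Alas2 was at 7.10, 7.26 and 6.30 with ascorbic acid and at 5.96, 6.01 and 6.11 in controls (0.86 ± 0.17; adjusted p = 0.0210; 0.102 by day 5 alone and 0.172 without the pairing). Globin genes are similar in sequence, so cross-hybridisation between them is uncertain here.

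**Figure D1:**
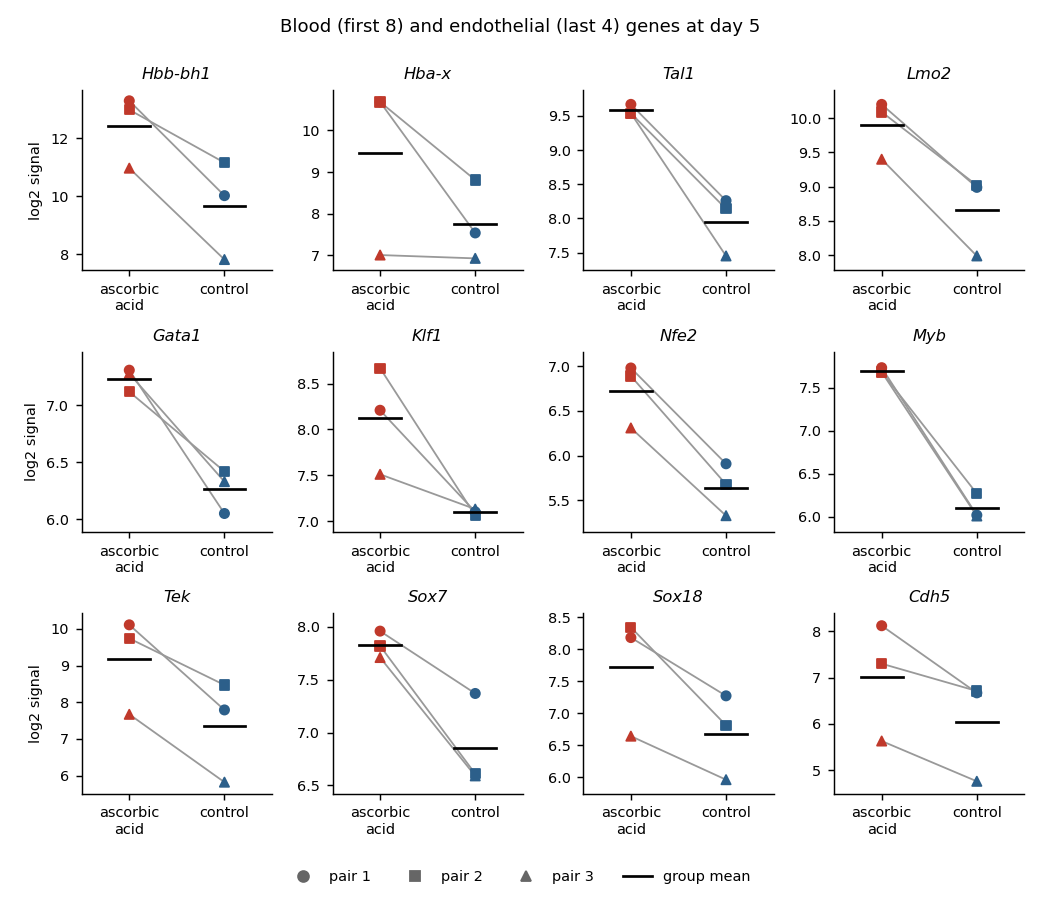
Log2 signal of 8 blood genes and 4 endothelial genes at day 5, with ascorbic acid on the left and control on the right of each panel. Lines join the arrays of a pair, the marker shape gives the pair and the black bar the mean of 3 arrays, and replicate 3 (triangles) is low in both groups for Hbb-bh1, Hba-x, Lmo2, Tek, Sox18 and Cdh5 while the treated array stands higher in every pair.

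Of the other 10 blood genes, 0 fell, and several passed the test only on a probe set other than the brightest one that stood for the gene. When each of 34945 probe sets was tested on its own, 15 of the 21 blood genes had a probe set that rose, where 0.94% of all genes had one. This added Hbb-y, Runx1, Cited4 and Ikzf1. These 4 were chosen after their values were seen. Hbb-y, the epsilon-like embryonic globin, had 2 such probe sets, and the larger difference was 2.89 ± 0.28 (adjusted p = 3.35e-05, limma). That probe set read 9.39, 8.79 and 5.87 with ascorbic acid and 5.03, 6.56 and 3.80 in controls, where the last value is near the low end of the signals. Runx1, the factor needed for definitive blood stem cells, read 6.55, 6.81 and 6.32 with ascorbic acid and 5.70, 4.96 and 5.09 in controls on 1 probe set (1.31 ± 0.17; adjusted p = 7.53e-04). Its brightest probe set differed by 0.15 ± 0.13. The adult globin gene Hba-a1 differed by -0.02 ± 0.11, and the myeloid factor gene Spi1 by -0.04 ± 0.11.

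Promoters of the red cell genes are shown because these genes moved together and because GATA1 and its relatives bind a short motif near many of them. Of the 11 blood genes that rose, 8 had a promoter in a RefSeq table of the GRCm38.p6 build, and the 250 bases before each start were searched on both strands for AGATAA or TGATAA, which share their last 5 letters. Alas2, Hba-x, Klf1 and 1 of the 2 listed starts of Tal1 held 1 match each, at offsets of -86, -108, -80 and -205 from the start. Capitals mark the match, written TTATCT or TTATCA where it lies on the other strand, and all 4 sequences run 5′ to 3′ on the plus strand of the genome. They lie at chrX:150547167-150547416, chr11:32276350-32276599, chr8:84901732-84901981 and chr4:115056176-115056425.
Alas2: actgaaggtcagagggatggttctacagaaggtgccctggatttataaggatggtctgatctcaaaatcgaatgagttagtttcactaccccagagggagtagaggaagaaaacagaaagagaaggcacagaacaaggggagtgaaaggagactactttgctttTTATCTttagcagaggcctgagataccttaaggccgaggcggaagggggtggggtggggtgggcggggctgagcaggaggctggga
Hba-x: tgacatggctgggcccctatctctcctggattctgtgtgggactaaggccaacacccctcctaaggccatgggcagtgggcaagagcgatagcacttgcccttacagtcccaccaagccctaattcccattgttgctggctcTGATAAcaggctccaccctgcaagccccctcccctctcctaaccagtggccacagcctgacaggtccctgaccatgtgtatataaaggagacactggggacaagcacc
Klf1: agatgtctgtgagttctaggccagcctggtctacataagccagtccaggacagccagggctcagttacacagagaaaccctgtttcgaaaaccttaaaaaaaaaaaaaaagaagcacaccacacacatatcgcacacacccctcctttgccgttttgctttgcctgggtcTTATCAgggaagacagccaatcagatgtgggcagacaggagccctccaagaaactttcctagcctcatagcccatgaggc
Tal1: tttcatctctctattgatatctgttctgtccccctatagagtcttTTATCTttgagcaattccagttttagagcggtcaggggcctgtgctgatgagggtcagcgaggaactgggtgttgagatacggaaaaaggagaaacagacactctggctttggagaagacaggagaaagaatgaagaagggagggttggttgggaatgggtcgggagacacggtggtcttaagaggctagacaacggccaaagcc
A match was found in 4 of the 8 genes and in 4 of their 10 listed promoters (40%), against 16.6% of all 32851 promoters and 16.3% of the 129 promoters of genes that rose. Other motifs searched in the same windows were CCNCACCC, found in 30.0% of the 10 promoters and 14.9% of all, CANNTG, in 40.0% and 66.2%, and AGGAAG or CGGAAG, in 30.0% and 39.2%. A match is a description of letters, and binding was not measured.

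Endothelial genes rose beside the blood genes. Of 22 measured genes, 6 rose (27.3%, against 0.781% of all genes) and 0 fell. A positive difference was found in 20 of them, and the median was 0.40, against 0.01 over all genes. Their mean was 7.61, 7.51 and 6.93 in treated arrays and 6.95, 7.02 and 6.52 in control arrays. Replicate 3 was low in both groups. The day 5 arrays alone called 5 of these genes, and the unpaired fit called Sox7 alone. Tek, the angiopoietin receptor of vessel walls, was measured at 10.11, 9.74 and 7.67 with ascorbic acid and at 7.79, 8.47 and 5.82 in controls. Its groups overlapped through replicate 3, and the difference was 1.81 ± 0.17 (3.52-fold; adjusted p = 2.09e-05, limma; adjusted p = 0.492 without the pairing).

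Factors of the endothelial programme were among the 6. Etv2, which opens the blood and vessel programme in mesoderm, was at 9.05, 8.99 and 8.95 with ascorbic acid and at 8.29, 8.57 and 7.94 in controls (0.73 ± 0.13; adjusted p = 0.0108, limma; adjusted p = 0.0711 without the pairing). Sox7 was at 7.96, 7.82 and 7.71 with ascorbic acid and at 7.37, 6.61 and 6.59 in controls (0.97 ± 0.13; adjusted p = 9.92e-04; adjusted p = 0.0212 without the pairing). Neither gene overlapped between groups. Sox18, a relative of Sox7, was at 8.18, 8.34 and 6.64 with ascorbic acid and at 7.27, 6.81 and 5.96 in controls (1.04 ± 0.14; adjusted p = 8.99e-04; adjusted p = 0.625 without the pairing). Of adhesion genes, Cdh5, which encodes VE-cadherin, stood at 8.12, 7.30 and 5.63 with ascorbic acid and at 6.67, 6.71 and 4.76 in controls (0.97 ± 0.14; adjusted p = 0.00166), and Icam2 rose by 0.93 ± 0.17. Without the pairing adjusted p = 0.999 for both, and the day 5 arrays alone did not call Icam2 (adjusted p = 0.0711). Sox17, the third member of this Sox group, differed in sign between pairs (8.41, 8.43 and 8.74 against 8.60, 8.78 and 8.27 in controls).

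The other 16 endothelial genes were not called on their brightest probe set. Kdr was at 10.73, 11.29 and 10.24 with ascorbic acid and at 10.49, 10.69 and 10.08 in controls, higher in each pair but by 0.33 ± 0.12 (adjusted p = 0.39, limma). Pecam1, an adhesion gene of mature endothelium, differed by 0.17 ± 0.12, and Flt1, a VEGF receptor gene, by 0.06 ± 0.15. Cd34 and Plvap, at 0.77 ± 0.18 and 0.80 ± 0.24, missed the threshold. On single probe sets Fli1 (1.34 ± 0.18) and Erg (1.38 ± 0.16), which encode ETS factors of blood and vessel cells, rose as well, chosen after their values were seen. In all, 8 of the 22 genes had a probe set that rose, against 0.94% of all genes.

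Cardiac genes rose in fewer cases, and on their brightest probe sets mainly in pairs 1 and 2. Of 22 sarcomere genes, 2 rose and 0 fell (median 0.07), and of 20 cardiac transcription factor genes 1 rose and 0 fell (median 0.04). Of 16 genes of calcium handling and pacemaking 1 rose and 0 fell (median 0.09). Over all genes 0.781% rose and 0.176% fell, with a median of 0.01. Of these 4 genes, on their brightest probe sets, the day 5 arrays alone called Myl7 only, and the unpaired fit called 0.

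Myl7, the atrial myosin light chain and an early marker of heart muscle, was at 10.55, 10.47 and 7.08 with ascorbic acid and at 8.02, 8.45 and 6.48 in controls. The treated arrays of pairs 1 and 2 lay above every control, while replicate 3 was low in both groups and differed by 0.60. The difference was 1.72 ± 0.24 (3.29-fold; adjusted p = 9.92e-04, limma; adjusted p = 0.813 without the pairing). Actc1, the cardiac alpha actin, was at 9.81, 9.26 and 7.52 with ascorbic acid and at 7.66, 7.78 and 7.37 in controls (1.26 ± 0.25; adjusted p = 0.0210; 0.102 by day 5 alone). Ryr2, the calcium release channel, was at 6.82, 6.88 and 5.57 with ascorbic acid and at 5.88, 5.98 and 5.40 in controls (0.67 ± 0.15; adjusted p = 0.0479). Mef2c, which drives muscle genes in the heart field and is also active in endothelium, was at 8.20, 8.19 and 6.79 with ascorbic acid and at 7.45, 7.62 and 6.45 in controls (0.55 ± 0.11; adjusted p = 0.0216). Other Mef2c probe sets, chosen after their values were seen, rose by 0.943, 0.847 and 1.097. By day 5 alone their adjusted p was 0.00268, 0.00565 and 0.0253 (limma). The first of these read 9.22, 9.34 and 6.47 with ascorbic acid and 8.27, 8.53 and 5.40 in controls. A further Mef2c probe set differed by only 0.067. In Actc1 and Ryr2 pair 3 differed by only 0.15 and 0.17. Without the pairing adjusted p = 0.590 for Actc1, 0.853 for Ryr2 and 0.999 for Mef2c, and Ryr2 was called in 1 of the 13 alternatives.

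The troponin gene Tnnt2 depended on the probe set. Its brightest probe set over the series read 5.45, 5.60 and 5.54 with ascorbic acid and 5.71, 5.51 and 5.56 in controls, and was as flat in day 3 controls (5.64, 5.68 and 5.46). The other 2 probe sets, chosen after their values were seen, ran from 3.08 to 3.73 in day 3 controls. At day 5 one read 9.50, 8.77 and 4.64 with ascorbic acid and 7.10, 7.72 and 4.11 in controls (1.33 ± 0.22; adjusted p = 0.0053, limma), and the other 8.43, 8.46 and 4.70 against 5.92, 6.78 and 4.37 (1.51 ± 0.24; adjusted p = 0.0042). On these probe sets replicate 3 was the lowest array of both groups. Myh6, the atrial myosin heavy chain, read 6.87, 5.68 and 4.10 with ascorbic acid and 4.94, 4.69 and 4.07 in controls and was not called (0.98 ± 0.24; adjusted p = 0.0748).

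Genes of the cardiac progenitor state overlapped between the groups. Nkx2-5 was at 7.69, 7.92 and 7.37 with ascorbic acid and at 7.76, 7.65 and 7.26 in controls (0.10 ± 0.12). Isl1, a marker of the second heart field, was at 8.26, 8.18 and 7.65 with ascorbic acid and at 8.47, 8.05 and 7.59 in controls (-0.01 ± 0.13). Tbx5 differed by 0.09 ± 0.11, Gata4 by 0.31 ± 0.17, Hand2 by 0.03 ± 0.14, Hand1 by -0.27 ± 0.11 and the early mesoderm gene Mesp1 by -0.07 ± 0.20. None of these 7 genes was called by limma in the paired or the unpaired fit. On single probe sets Zfpm2, a GATA cofactor of the heart, rose by 0.63 ± 0.12 and Tbx3, a repressor of working heart muscle genes, fell by 0.60 ± 0.13, again chosen after the values were seen.

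**Figure D2:**
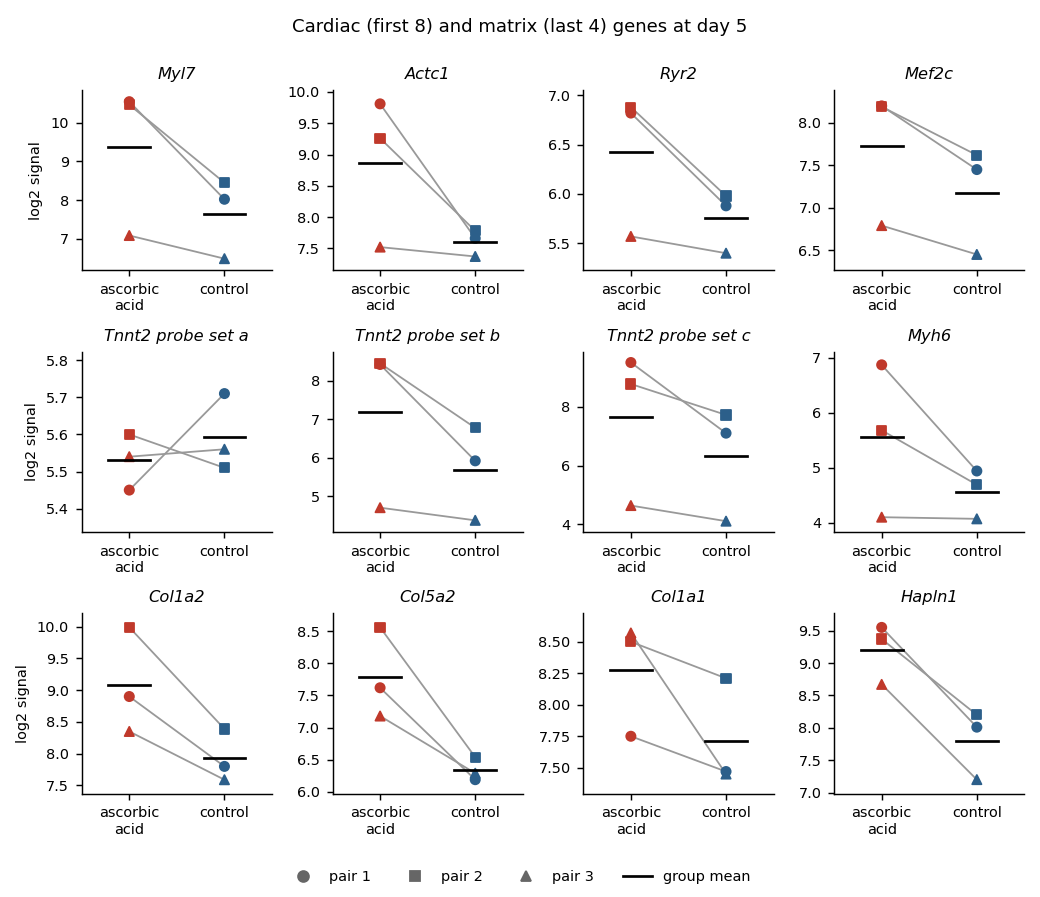
Log2 signal of cardiac and matrix genes at day 5, with ascorbic acid on the left and control on the right, lines joining pairs and black bars for means of 3 arrays. The panels named probe set a, b and c are the 3 probe sets of Tnnt2, of which a is flat near 5.5 and b and c are higher with ascorbic acid mainly in pairs 1 and 2.

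The lists of smooth muscle, collagen and other matrix genes held 1 or 2 calls each, where 0.781% of all genes rose. Acta2, the smooth muscle actin, rose in treated embryoid bodies (9.70, 10.32 and 9.13, against 8.59, 9.72 and 8.62 in controls; 0.74 ± 0.13; adjusted p = 0.0106, limma; adjusted p = 0.853 without the pairing) and was the 1 called gene of 15 in its list. Of 27 collagen genes 2 rose and 0 fell, with a median of 0.06. Col5a2, a fibrillar collagen chain, was at 7.62, 8.56 and 7.18 with ascorbic acid and at 6.19, 6.54 and 6.29 in controls, with no overlap (1.45 ± 0.20; 2.73-fold; adjusted p = 0.00115; adjusted p = 0.0348 without the pairing). Col1a2, a chain of type I collagen, was at 8.90, 9.99 and 8.35 with ascorbic acid and at 7.80, 8.39 and 7.59 in controls (1.15 ± 0.14; adjusted p = 4.06e-04; adjusted p = 0.178 without the pairing). Both rose most in pair 2.

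Its partner chain Col1a1 was higher in each pair, by 0.28, 0.29 and 1.12, and was not called (0.56 ± 0.16; adjusted p = 0.148, limma). Col3a1 spread widely among controls, at 7.37, 9.18 and 5.34, against 6.61, 6.37 and 5.92 with ascorbic acid, and was not called (adjusted p = 0.399). Its other probe set was called lower (adjusted p = 0.0329), at 3.71, 3.88 and 3.53 with ascorbic acid and 4.20, 4.85 and 3.85 in controls, and its treated values are near the low end of the signals. By any probe set 3 collagen genes rose, Col9a3 added, and 1 fell, where 0.258% of all genes had a probe set that fell. Hapln1, which links hyaluronan to proteoglycans and is made in the developing heart, was the 1 gene called of 27 in the list of other matrix genes. It stood at 9.55, 9.37 and 8.67 with ascorbic acid and at 8.01, 8.20 and 7.20 in controls, without overlap (1.39 ± 0.12; 2.63-fold; adjusted p = 9.36e-06; adjusted p = 0.013 without the pairing). In stem cells and at days 2 and 3 all Hapln1 means were between 3.50 and 3.69, near the low end of the signals.

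**Figure D3:**
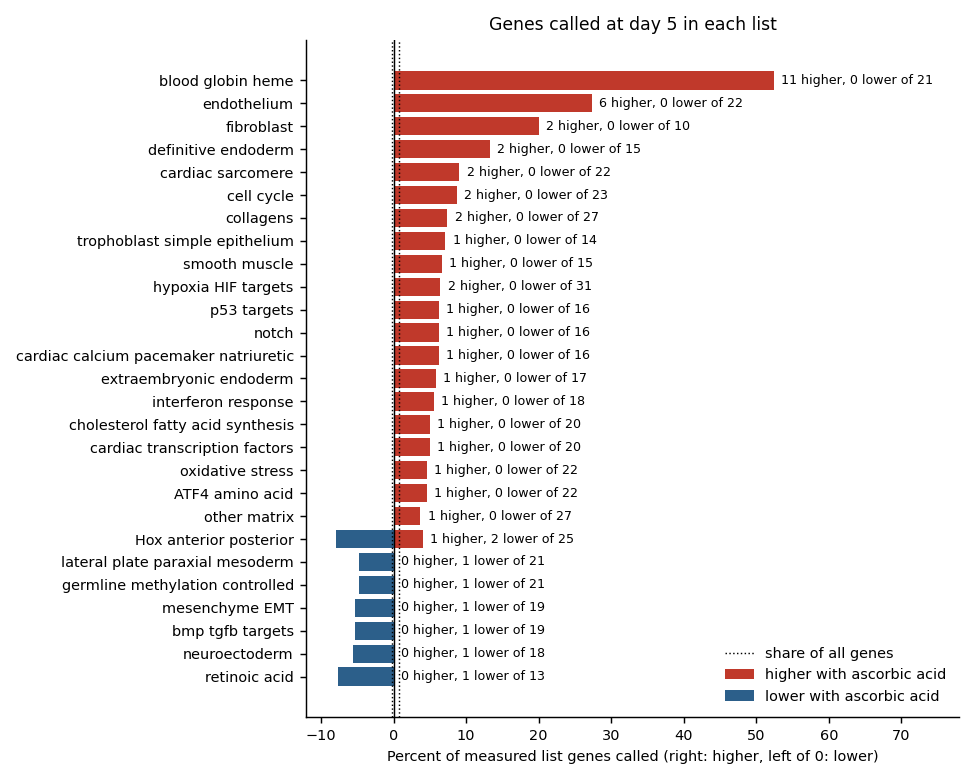
Share of the measured genes of each list that limma called at day 5, as percent, with genes higher with ascorbic acid to the right of 0 and lower ones to the left. Dotted lines give the shares over all genes (0.781% higher, 0.176% lower). Blood (11 of 21) and endothelium (6 of 22) hold the most calls, and lists with 0 calls are left out.

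Genes of the ascorbate-dependent enzymes were not called. Of 20 collagen hydroxylases and crosslinking enzymes 0 were called (median 0.02), and of 26 dioxygenases that act on chromatin 0 were called (median 0.00). P4ha1, a collagen prolyl hydroxylase subunit, was at 8.79, 9.41 and 8.97 with ascorbic acid and at 8.54, 9.05 and 9.09 in controls. Tet1 was at 7.83, 7.67 and 7.94 with ascorbic acid and at 7.96, 8.10 and 7.83 in controls. Both genes overlapped between groups. The lists of DNA methylation (11 genes), vitamin C transport (15) and iron handling (13) had 0 calls each. Over all genes 0.956% were called, so 0 calls in lists this short is close to that share.

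HIF target genes had 2 calls at day 5. Of 31 measured, 2 rose (6.45%, against 0.781% of all genes) and 0 fell, and the median was 0.14. The 2 were Higd1a, a mitochondrial protein gene induced by hypoxia, at 11.35, 11.24 and 11.39 with ascorbic acid and 10.64, 10.81 and 10.86 in controls (0.56 ± 0.09; adjusted p = 0.00496, limma), and Ankrd37 (0.85 ± 0.16; adjusted p = 0.0150). Without the pairing adjusted p = 0.0504 for Higd1a and 0.0935 for Ankrd37. At the earlier days 9 of the 31 fell at day 2 (0.539% of all genes) and 5 fell at day 3 (0.104% of all genes). The difference between day 5 and the mean of those days was called for 8 of the 31, against 0.539% of all genes.

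Stress and amino acid response groups held single calls, where 0.781% of all genes rose. Amino acid response genes of the ATF4 pathway had 20 of 22 differences positive and a median of 0.23, against 0.01 over all genes. Of them 1 was called, Cth, a cysteine synthesis gene (0.77 ± 0.16; adjusted p = 0.0224, limma). Single rises were Gclm (0.47 ± 0.10), which encodes the modifier subunit of glutathione synthesis, among 22 oxidative stress genes, Pmaip1 (0.75 ± 0.17), an apoptosis gene, among 16 p53 targets, Helz2 (1.02 ± 0.18) among 18 interferon genes, and Jag1 (0.67 ± 0.13), a Notch ligand, among 16 Notch genes. Without the pairing none of these 5 passed (adjusted p = 0.0655 for Helz2 and 0.472 to 0.999 for the others), and of the 13 alternatives Pmaip1 was called in 2 and Gclm in 3. The other Jag1 probe sets differed by 0.283 and 0.097 and were not called (adjusted p = 0.79 and 0.986, limma). Of 15 definitive endoderm genes 2 rose, Hhex (0.78 ± 0.15), which is also expressed in blood and vessel precursors, and the gut hormone gene Pyy (1.70 ± 0.30). Pyy spread widely in treated arrays, at 7.57, 9.36 and 6.54 against 6.58, 6.03 and 5.75 in controls, and its 3 pairs alone gave an SE of 0.82. The day 5 arrays alone called neither Pyy (adjusted p = 0.102) nor Hhex (adjusted p = 0.0614), and nor did the unpaired fit (adjusted p = 0.178 and 0.664). Ets2 rose by 0.77 ± 0.11 (adjusted p = 0.853 without the pairing) in a list of 14 trophoblast genes whose median was -0.26. The pluripotency and streak lists, with 20 genes each, had 0 calls. So had the lists of immediate early (20), Wnt (16), imprinted (21) and skeletal muscle genes (15). In lists this short 0 calls is close to the 0.956% called over all genes. Lpl, a lipase gene, was the 1 call (0.65) among 20 lipid synthesis genes (adjusted p = 0.831 without the pairing).

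Pttg1 was the gene with the smallest p. It encodes securin, which holds back the separation of sister chromatids, and it was at 11.83, 12.17 and 11.95 with ascorbic acid and at 10.40, 10.81 and 10.67 in controls. The groups lay about 1 log2 unit apart and the pairs differed by 1.43, 1.36 and 1.28 (1.36 ± 0.08; 2.56-fold; adjusted p = 7.84e-08, limma; adjusted p = 2.48e-05 without the pairing). Its difference was 1.23 at day 2 and 1.13 at day 3, and the test of the change between days gave adjusted p = 0.678. Of 23 cell cycle genes 2 rose, Pttg1 and Ccne1 (0.58 ± 0.11; adjusted p = 0.119 without the pairing), and 21 had a positive difference with a median of 0.08. Over all genes 0.781% rose and the median was 0.01. Pttg1 was 1 of 6 genes called in the same direction at all of days 2, 3 and 5, beside Acta2, Gask1b, Gstp1, Lpl and Mkx, where 481 genes (2.64%) were called at day 2 and 36 (0.198%) at day 3. Rises made up 2.11% of all genes at day 2 and 0.0934% at day 3.

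Whether the day 5 differences were those of earlier days was tested as the day 5 effect minus the mean of the day 2 and day 3 effects in the same fit. This contrast was called for 98 genes (0.539%), of which 72 (0.396%) were above 0 and 26 (0.143%) below. It was called for 53 of the 142 genes that rose at day 5 and for 8 of the 32 that fell. Among the blood list 10 of 21 genes passed it. Hbb-bh1 differed by -0.41 ± 0.24 at day 2 and -0.46 ± 0.24 at day 3, when its control means were 5.62 on both days, and the contrast was 3.19 ± 0.29 (adjusted p = 8.84e-05, limma). For Tal1 it was 1.74 ± 0.17 (adjusted p = 1.07e-04), for Tek 1.64 ± 0.21 (adjusted p = 0.00117), for Hapln1 1.29 ± 0.14 (adjusted p = 4.47e-04) and for Myl7 1.69 ± 0.29 (adjusted p = 0.0104). Hapln1 means of both groups at days 2 and 3 were 3.53 to 3.69, near the low end. Its contrast thus largely repeats its day 5 difference.

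Several genes outside these lists had the same form. Rspo3, a secreted Wnt amplifier, was at 9.67, 10.01 and 10.45 with ascorbic acid and at 8.78, 8.77 and 8.96 in controls. All treated arrays lay above all controls, with a rise of 1.21 ± 0.15 at day 5 where day 3 had read -0.54 ± 0.15 (contrast 1.51 ± 0.18; adjusted p = 0.00108, limma; the day 5 rise had adjusted p = 0.625 without the pairing). Hmgn3, a nucleosome-binding protein gene, fell by 0.86 ± 0.13 at day 2 and rose by 0.81 ± 0.13 at day 5, and Dcaf12l1 fell by 0.74 ± 0.13 and rose by 0.76 ± 0.13. Inka1, a kinase inhibitor gene, rose by 0.87 ± 0.12 and Csgalnact1, an enzyme gene of chondroitin sulfate synthesis, by 0.80 ± 0.10. Slc18a2, the vesicle transporter of monoamines, rose in treated embryoid bodies to 6.74, 7.07 and 5.11, against 4.78, 5.15 and 4.33 in controls. Pygl, the liver form of glycogen phosphorylase, reached 5.87, 7.09 and 4.95 with ascorbic acid, against 3.96, 4.72 and 4.28 in controls, of which the lowest is near the low end of the signals. Without the pairing adjusted p was 0.0655 for Inka1, 0.101 for Csgalnact1, 0.914 for Dcaf12l1, 0.0859 for Slc18a2 and 0.0711 for Pygl.

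**Figure D4:**
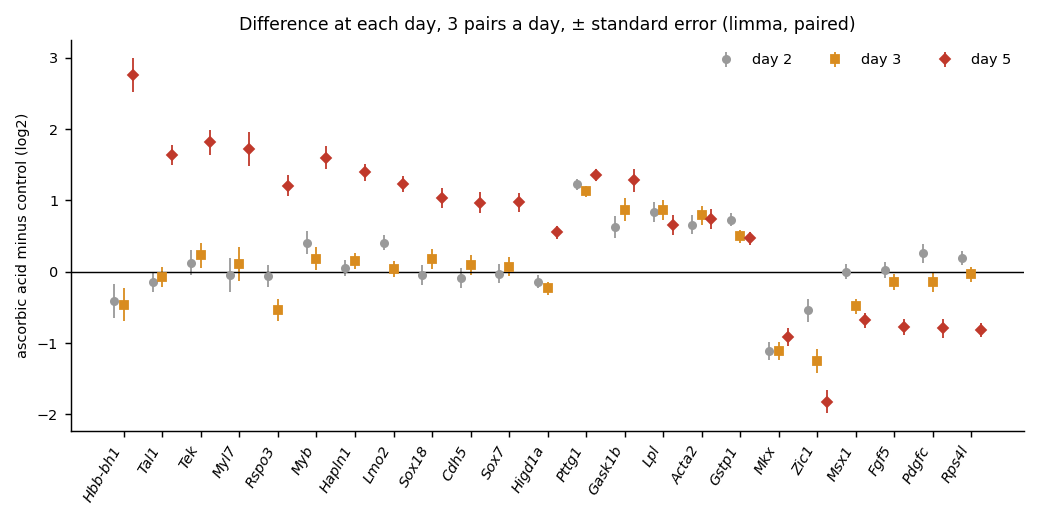
Ascorbic acid minus control (log2) for named genes at days 2, 3 and 5, with standard errors from the paired limma fit of 9 pairs. Hbb-bh1, Tal1, Tek and Myl7 depart from 0 at day 5, the rises of Pttg1, Gask1b, Lpl, Acta2 and Gstp1 and the fall of Mkx are present at all 3 days, and Fgf5, Pdgfc and Rps4l fall at day 5. Treated signals of Zic1 are near the low end, so the sizes drawn for it are uncertain.

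The 32 genes that fell had mostly small differences, and 7 of them stood in a list. Zic1, a zinc finger gene of neural and dorsal mesoderm tissue, was at 3.51, 3.34 and 3.99 with ascorbic acid and at 4.69, 5.09 and 6.52 in controls. The treated values are near the low end of the signals, so no size of the difference is given. The groups did not overlap (adjusted p = 1.54e-05, limma; adjusted p = 0.0212 without the pairing). Zic1 was also called lower at day 3 (adjusted p = 0.00301). It was the 1 called gene of 18 in the neuroectoderm list, where 0.176% of all genes fell. Mkx, a homeobox gene of tendon, was at 4.97, 4.79 and 4.83 with ascorbic acid and at 6.04, 5.67 and 5.63 in controls (-0.92 ± 0.13; adjusted p = 9.46e-04; adjusted p = 0.0894 without the pairing), after -1.11 ± 0.13 at both day 2 and day 3.

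Other falls included genes of mesenchyme, patterning and signalling. Pdlim4, an actin-binding adaptor gene, was at 8.01, 8.69 and 9.38 with ascorbic acid and at 9.10, 9.68 and 10.22 in controls. Here replicate 3 was the highest of both groups, and the pairs differed by -1.09, -0.99 and -0.84 (-0.97 ± 0.12; adjusted p = 3.22e-04, limma; adjusted p = 0.745 without the pairing). Msx1, a homeobox target of BMP signalling, was at 9.98, 10.72 and 11.61 with ascorbic acid and at 10.87, 11.40 and 12.08 in controls (-0.68 ± 0.11; adjusted p = 0.00341; adjusted p = 0.999 without the pairing). Twist1, a mesenchymal factor gene, was lower in each pair but was not called (-0.78 ± 0.23; adjusted p = 0.186). The mesenchyme list had a median of -0.17, with 1 of 19 genes called lower, where 0.176% of all genes fell.

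Of 25 Hox genes, 1 rose (0.781% of all genes did) and 2 fell (0.176% of all genes did). Hoxc4 was at 6.08, 6.10 and 6.12 with ascorbic acid and at 6.84, 6.93 and 6.91 in controls, a narrow spread in both groups (-0.79 ± 0.14; adjusted p = 0.00995, limma; adjusted p = 0.0383 without the pairing). Hoxd8 was at 8.12, 7.99 and 8.02 with ascorbic acid and at 8.81, 9.20 and 8.33 in controls (-0.74 ± 0.14; adjusted p = 0.0120; 0.0819 by day 5 alone and 0.0807 without the pairing). Hoxb5 rose in treated embryoid bodies (6.74, 6.97 and 7.53, against 5.40, 6.63 and 6.85 in controls; 0.79 ± 0.15; adjusted p = 0.0146; 0.103 by day 5 alone and 0.685 without the pairing). Crabp2, which carries retinoic acid in the cell, was at 6.92, 7.10 and 6.74 with ascorbic acid and at 7.61, 7.65 and 7.42 in controls (-0.64 ± 0.14; adjusted p = 0.0394; adjusted p = 0.999 without the pairing). Of the 13 alternatives 2 called Crabp2.

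Fgf5, the epiblast growth factor gene, was at 5.25, 5.52 and 4.77 with ascorbic acid and at 6.20, 6.08 and 5.57 in controls, where it had stood at 10.65 ± 0.26 in day 3 controls (SD, n = 3). Its fall was 0.77 on the log2 scale (adjusted p = 0.00156, limma; adjusted p = 0.720 without the pairing). Pdgfc, a ligand of the receptor Pdgfra, fell by 0.79 ± 0.14 on its brightest probe set. Its other probe set read 6.46, 6.57 and 7.58 with ascorbic acid and 6.88, 7.14 and 7.07 in controls. That one was higher in pair 3 and was not called (-0.16 ± 0.19; adjusted p = 0.973, limma). Pdgfra itself, at 9.62, 10.62 and 10.60 with ascorbic acid and 10.21, 10.82 and 10.37 in controls, overlapped between groups. Sycp3, a protein of the meiotic chromosome axis, was at 5.49, 6.33 and 6.11 with ascorbic acid and at 6.10, 7.19 and 7.54 in controls (-0.97 ± 0.21; adjusted p = 0.0340; adjusted p = 0.713 without the pairing). It was the 1 call among 21 germline genes, where 0.176% of all genes fell. Rps4l, a ribosomal protein gene copy, fell by 0.82 ± 0.10 without overlap (adjusted p = 5.51e-04), Adamts20, a secreted protease gene, by 0.84 ± 0.15, Sema5a, a guidance gene, by 0.70 ± 0.13 and Lypd6, a modulator of Wnt signalling, by 0.69 ± 0.16. Without the pairing adjusted p was 0.746 for Pdgfc, 0.0901 for Adamts20, 0.853 for Sema5a and 0.625 for Lypd6, and Lypd6 was called in 2 of the 13 alternatives.

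**Figure D5:**
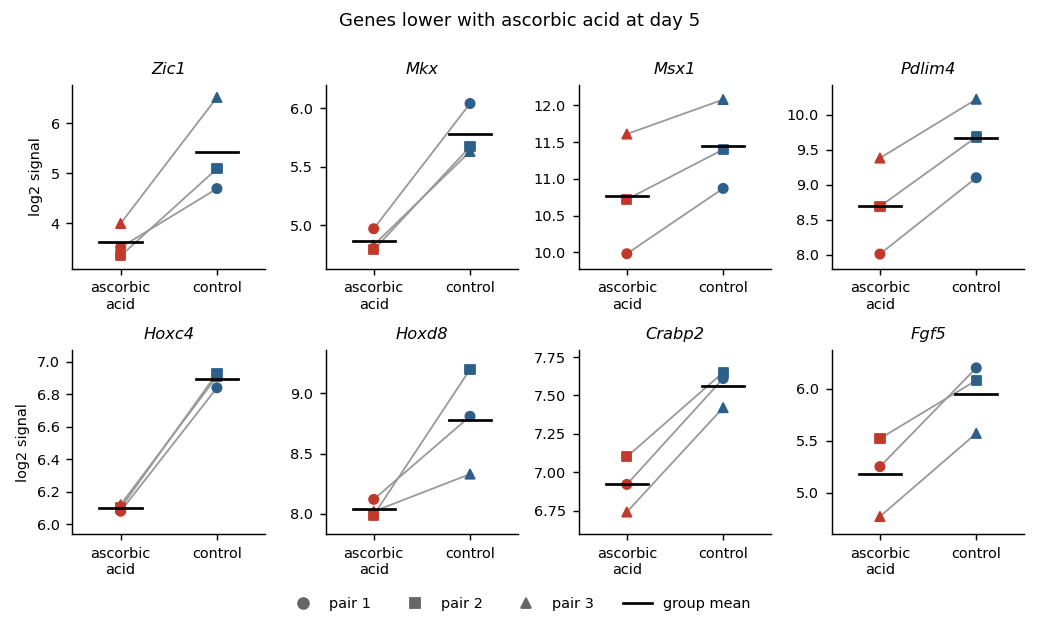
Log2 signal at day 5 of 8 genes that fell with ascorbic acid, with ascorbic acid on the left and control on the right, lines joining pairs and black bars for means of 3 arrays. For Hoxc4 the treated arrays lie at 6.08 to 6.12 and the controls at 6.84 to 6.93, while for Pdlim4 and Msx1 the groups overlap and each pair differs in the same direction.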

How the data were processed

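Whole embryoid bodies of the CGR8 line were profiled on 21 Affymetrix mouse arrays. The deposited values are log2 signals per probe set, made by the authors with RMA, per the submitters' processing notes; the RMA version was "not given in the sources used here". Columns left unused numbered 0. Members and gene lists (38 lists, 717 genes) were chosen with earlier results of these data known.

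Of 45101 probe sets, 34958 had 1 gene symbol in the platform annotation, 932 had several, 9211 had none, and 64 were controls. For 18193 genes the brightest probe set over the series, by mean signal, stood for the gene. limma 3.58.1 in R 4.3.3 was fitted to the 18 treated and control arrays of days 2, 3 and 5 with the 9 same-numbered pairs as blocks, moderated with an intensity trend, and p-values were Benjamini-Hochberg adjusted over all genes. The test of the day 5 effect against earlier days came from the same fit. The pairing rests on label numbers. Deviations from the group means correlated above 0.1 in 9 of 9 same-numbered pairs (r from 0.178 to 0.679), against -0.509 to 0.088 between numbers. The deviations of a group sum to 0, so a positive r within numbers lowers r between numbers. That contrast is thus partly built in and cannot show by itself that the pairing is right. Where a named gene lost its call without the pairing, the unpaired adjusted p stands beside it or at the end of its group.

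The named genes were the 12 largest called rises and 12 largest called falls with a level of at least 5 in a group, and up to 4 called genes of each list. To these were added the 10 genes with the smallest limma p for the day difference, and 25 markers read whatever their test. Other called blood and endothelial genes, and results of single probe sets, were named after their values were seen. Signals of about 4 or less were taken as near the low end. No size was given for Zic1 or for the second Col3a1 probe set, whose treated signals lay there. Differences against such signals are printed elsewhere, as for Hbb-y, Pygl and the day contrasts of Hapln1 and Slc18a2, and their sizes are uncertain. The alternatives tried were an unpaired fit, a random block, renewed quantile normalization, median centring, the mean of all probe sets, a filter on low values, no intensity trend, the day 5 arrays alone and leaving out arrays. The small number of arrays limits the precision. No coordinates were used beyond RefSeq promoters (GRCm38.p6), and figures were drawn with matplotlib 3.10.9.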

Additional observations from a re-analysis of the deposited data

Results flagged for a closer look

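The difference between ascorbic acid and control at day 5 differed from the mean of its values at days 2 and 3 for 29 named genes, by a limma contrast within the paired fit at an adjusted p under 0.05. All values are log2 differences, day 5 minus the mean of days 2 and 3. Among blood and endothelial genes the change was 3.19 for Hbb-bh1, 1.74 for Tal1, 1.64 for Tek, 1.30 for Myb, 1.01 for Lmo2, 0.98 for Sox18, 0.96 for Cdh5, 0.95 for Sox7 and 0.85 for Hhex. Among heart and matrix genes it was 1.69 for Myl7, 1.29 for Hapln1 and 0.86 for Col1a2. Signalling genes included Rspo3 at 1.51 and Jag1 at 0.98. The change was 1.74 for Pyy, 1.57 for Slc18a2, 1.56 for Pygl (1 control signal near the low end), 1.30 for Hmgn3, 1.24 for Dcaf12l1, 1.22 for Inka1 and 0.99 for Csgalnact1. It was 0.95 for Hoxb5, 0.81 for Itm2a, 0.74 for Higd1a and 0.74 for Ets2. It was below 0 for Fgf5 at -0.71, Sema5a at -0.78, Pdgfc at -0.85 and Rps4l at -0.90. Itm2a was not called at day 5 itself (0.26). Hapln1 and Slc18a2 were near the low end in both groups at days 2 and 3, so their changes largely repeat the day 5 difference. The unpaired fit called this contrast for 7 genes in all.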

How the results depend on the processing

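Counts of calls depended on how the replicate pairs were treated. Without the replicate block 15 genes were called (12 higher, 3 lower), and the day contrast 7 (6 and 1), against 174 (142 and 32) and 98 (72 and 26) with the pairing. A random block gave 74 (65 and 9), and 20 for the contrast (19 and 1). The day 5 arrays alone gave 83 (68 and 15) with the block, and without it 3 higher and 0 lower by limma, where 629 genes had an unadjusted p under 0.05. Leaving out 1 replicate number gave 56 to 184 calls, 48 to 123 higher and 8 to 61 lower, with 34 to 146 for the contrast (29 to 97 and 5 to 49). Without replicate 1 there were 48 rises and 8 falls, without replicate 2 83 and 13, and without replicate 3 123 and 61, when the share of rises was 66.8% against 81.6%. The mean of all probe sets gave 15 lower genes, and 61 for the contrast with 11 below 0, and it turned Tnnt2 to 0.92 ± 0.16 (adjusted p = 0.0258, limma) from -0.06. Leaving out the day 3 pair of replicate 3, chosen after seeing the data, gave 63 for the contrast with 12 below 0. Renewed quantile normalization (133 and 29), median centring (107 and 26), a mean of at least 6 (102 and 24) and no intensity trend (116 and 24) kept the day 5 counts within 1.5 times. All 174 called genes kept their sign in each setting that measured them. Of 52 named called genes, only Pttg1 and Tal1 were called in all 13 alternatives. The number of arrays limits what smaller differences can show.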

Other observations

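Other genes of blood and vessel cells rose that stood in no list, chosen here after their values were seen. Zfpm1, the cofactor of Gata1, was at 8.82, 9.37 and 8.38 with ascorbic acid and at 8.14, 8.29 and 8.13 in controls (0.67 ± 0.14; adjusted p = 0.0224, limma). Of heme enzymes and carriers, Cpox rose by 0.71 ± 0.16 and the mitochondrial transporter gene Abcb10 by 0.45 ± 0.10. The red cell membrane gene Gypc was at 7.87, 7.71 and 6.78 with ascorbic acid and at 6.70, 6.70 and 6.29 in controls (0.89 ± 0.15). The cytokine receptor chains Csf2rb (0.80 ± 0.12) and Csf2ra (0.68 ± 0.12) rose without overlap between groups. Fermt3, an integrin activator of blood cells, rose on 1 probe set that is not its brightest, at 8.74, 8.83 and 6.36 with ascorbic acid and 6.05, 6.33 and 4.94 in controls (2.20 ± 0.21; adjusted p = 3.5e-05). Replicate 3 was the lowest array of both groups there.

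Vessel genes outside the lists included Efnb2, an arterial ephrin, at 9.31, 8.92 and 9.05 with ascorbic acid and 8.49, 8.60 and 8.12 in controls (0.69 ± 0.12; adjusted p = 0.00667, limma). Gja4, an arterial connexin, rose by 0.66 ± 0.13, and Ecscr, an endothelial surface protein gene, by 0.90 ± 0.17. The adrenomedullin receptor gene Calcrl (1.08 ± 0.19) and its partner Ramp2 (0.67 ± 0.15) both rose, and their groups overlapped through replicate 3. Without the pairing none of these blood and vessel genes measured by the brightest probe set was called, with adjusted p from 0.0655 (Csf2ra) to 0.999 (Calcrl and Ramp2). Tcf21, an epicardial and mesenchymal factor gene of the lateral plate list, rose on 1 probe set with a narrow spread, at 6.15, 6.05 and 6.18 with ascorbic acid and 4.94, 5.11 and 5.01 in controls (1.11 ± 0.11; adjusted p = 4.29e-05). In all, 69 genes were called only through a probe set other than the one used for the gene, 48 higher and 21 lower.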
